A study of Mus musculus with 2 samples.

Results

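The 9 genes described here form the core of the Hedgehog pathway: the ligand genes Shh and Ihh, the receptor gene Ptch1, the antagonist Hhip, the transducer Smo, the negative regulator Sufu and the transcription factor genes Gli1, Gli2 and Gli3. They were taken by gene symbol, and all 9 were found among the 43346 mouse genes of the deposited tables, with 34 transcripts between them. The tissue was the heart of B6NCrl mouse embryos aged 10.5 days, a C57BL/6N substrain with no engineered allele or treatment named in the labels. Total RNA longer than 200 nt, 10 ng per library, was sequenced from 2 biological replicates of this single group; replicate 1 pooled the hearts of 69 embryos and replicate 2 those of 51, male and female together. With 1 group there is no comparison of conditions, so levels are compared between genes and between the 2 pools, with no p-value.

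Hedgehog ligands are secreted, lipid-modified proteins that bind Patched receptors. Unbound Ptch1 keeps Smo inactive; ligand relieves that block, Smo acts at the primary cilium, and Gli proteins held back by Sufu turn on target genes, among them Ptch1, Gli1 and Hhip, whose products give feedback on the pathway. In the embryo Shh comes from foregut and pharyngeal endoderm next to the heart, and the adjoining second heart field mesoderm, which builds the outflow tract and the dorsal part of the atria, responds to it.

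Promoter windows (250 bases before to 50 after a gene's start) were found in the RefSeq table for GRCm38.p6 for 7 of the 9 genes, all but Shh and Gli1. A stretch before the start is shown for the target genes Hhip and Ptch1 (chr8:80058009-80058132 and chr13:63565736-63565855, minus strand). Others shown are Gli2, whose window alone of the 7 held the core of the Gli binding site (chr1:119053750-119053869, minus strand), and Sufu, whose level was alike in both pools (chr19:46396776-46396895, plus strand). Each is written 5′ to 3′ on the gene's strand. Capitals mark GGGCGG or its reverse complement (a GC box), ACCACCC or its reverse complement (the core) and TGACGTCA (the cyclic AMP response element).
Hhip: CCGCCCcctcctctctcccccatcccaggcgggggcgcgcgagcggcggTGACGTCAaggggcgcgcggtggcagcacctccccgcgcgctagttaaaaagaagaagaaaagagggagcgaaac
Ptch1: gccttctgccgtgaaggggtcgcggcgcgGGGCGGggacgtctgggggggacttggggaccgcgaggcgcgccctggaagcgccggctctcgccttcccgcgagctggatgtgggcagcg
Gli2: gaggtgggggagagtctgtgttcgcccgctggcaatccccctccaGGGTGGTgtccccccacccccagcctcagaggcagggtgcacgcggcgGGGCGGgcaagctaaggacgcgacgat
Sufu: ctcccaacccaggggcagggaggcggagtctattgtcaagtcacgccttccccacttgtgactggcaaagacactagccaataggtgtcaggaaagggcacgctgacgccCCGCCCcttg
The full Gli site searched, GACCACCCA, which contains the core, was in none of the 7 windows on either strand. It was in 83 of 32851 windows of the same length (0.253%). The core ACCACCC was in 4.61% of all windows and in that of Gli2, 205 bases before the start. GGGCGG was in 35.7% of all windows and in 6 of the 7, all but Smo. Of 35 other Hedgehog pathway genes with a window, 27 held GGGCGG, 2 the core and 1 TGACGTCA. TGACGTCA, searched after the Hhip sequence had been read, was in 1.79% of all windows and, of the 7, in that of Hhip, 75 bases before the start. The Ptch1 window lies before the start of transcript Ptch1-201, which was not the most abundant Ptch1 transcript. These matches describe letters in a window and say nothing of binding.

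The libraries held 45205713 and 41070978 expected counts, 43295923 and 39786163 of them on mouse genes, and spike-in RNAs took 4.22% and 3.13%. Heart muscle markers were abundant in both pools: all 10 were above 1 TPM, and their summed level was 20749 TPM (replicate 1) and 34607 TPM (replicate 2). TPM, a transcript's share of all transcripts, is a level divided by transcript length and can be compared between genes. All 10 heart muscle markers, such as Actc1 at 6437 and 11048 TPM, were higher in replicate 2.

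Both ligand genes were at the lower edge of detection. Shh (chromosome 5, 28456815 to 28467256, in GRCm38, which is mm10) was measured at 0.590 TPM in the first pool (replicate 1) and 0.0900 TPM in the second (replicate 2), with 46 and 6 counts. Ihh (chromosome 1, 74945315 to 74951672), which encodes the ligand best known from cartilage and gut, stood at 0.630 and 0.0900 TPM, from 44 and 6 counts. In each pool the pair were at almost the same level, high in replicate 1 and low in replicate 2, and the intervals that the authors give for TPM were apart between the pools for each gene. The third ligand gene, Dhh, best known from testis and peripheral nerve sheaths, was at 3.92 and 3.53 TPM. Of the summed TPM of the 3 ligand genes, Dhh thus held 76.3% in replicate 1 and 95.1% in replicate 2. The log2 TPM ratio of Shh to Dhh was -4.01 ± 1.81 (mean ± SD, n = 2 pools), of the same sign in both pools (-2.73 and -5.29) with intervals apart. Some Shh counts are uncertain, since it overlaps the opposite-strand genes 9530036O11Rik (1 and 0 counts) and Gm26894 (9 and 4 counts), and the sources used here do not give the strand setting of the counting.

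Ptch1 and Hhip, the ligand-binding members, are both known targets and were both higher in replicate 1. Ptch1 (chromosome 13, 63508328 to 63573598) stood at 10.0 and 4.64 TPM (7.32 ± 3.79 TPM, SD, n = 2), from 2082 and 787 counts. Hhip (chromosome 8, 79965851 to 80058006), a membrane protein that binds ligand and limits its action, stood at 4.15 and 0.640 TPM (2.40 ± 2.48 TPM, SD, n = 2), from 528 and 73 counts. The deposited intervals of the pools do not overlap for either gene, and the gap was wider for Hhip: the Ptch1 level was 2.41 times that of Hhip in replicate 1 and 7.25 times in replicate 2.

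Smo and Sufu, which are not counted among the targets, had the highest levels of the 9. Smo (chromosome 6, 29735503 to 29761365) stood at 28.8 and 17.1 TPM (23.0 ± 8.30 TPM, SD, n = 2), from 3229 and 1726 counts. Sufu (chromosome 19, 46396896 to 46488804) stood at 27.0 and 25.9 TPM (26.4 ± 0.735 TPM, SD, n = 2), from 3371 and 2894 counts. Smo was high in replicate 1 and low in replicate 2, while the intervals of Sufu overlapped between the pools. Sufu was the higher in replicate 2, with intervals apart. In replicate 1 the intervals of Smo (27.4 to 29.3 TPM) and Sufu (25.7 to 28.2 TPM) overlapped, so neither was clearly the higher there. The log2 TPM ratio of Ptch1 to Smo was -1.53 and -1.88, so Smo was the higher in both pools. Taken on expected counts, not divided by length, the mean ratio was -0.88 and no longer larger than the spread.

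Gli3 was the most abundant Gli gene in both pools and Gli1 the least. Gli3 (chromosome 13, 15463235 to 15730026), whose protein is mainly a repressor when ligand is absent, stood at 13.8 and 6.80 TPM (10.3 ± 4.97 TPM, SD, n = 2), from 2262 and 1050 counts. Gli2 (chromosome 1, 118834132 to 119053619), the main activator, stood at 6.11 and 1.87 TPM (3.99 ± 3.0 TPM, SD, n = 2), from 902 and 336 counts. Gli1 (chromosome 10, 127329882 to 127341974), an activator that is made where the pathway is on, stood at 3.54 and 0.620 TPM (2.08 ± 2.06 TPM, SD, n = 2), from 384 and 61 counts. All 3 were high in replicate 1 and low in replicate 2. Their shares of the summed Gli level shifted too: Gli3 held 58.9% and 73.2%, Gli2 26.0% and 20.1%, and Gli1 15.1% and 6.67%. The log2 TPM ratio of Gli1 to Gli3 was -2.71 ± 1.05 and that of Gli2 to Gli3 -1.52 ± 0.48 (SD, n = 2), both larger than the spread between the pools. For Gli2 that call was lost with the authors' posterior mean TPM (-1.12). The difference between Gli1 and Gli2 (-0.79 and -1.59) was not larger than the spread, since the Gli1 value of replicate 1 lies above the Gli2 value of replicate 2. Gli1 and Arhgap9, on opposite strands, overlap by 62 bases (132 and 32 counts for Arhgap9), and Gli3 overlaps Gm6556 (27 and 9 counts). Gli1 also overlaps the opposite-strand gene Gm47200 by 9584 bases, and no count is available for that gene. As the strand setting is not given, some Gli1 counts are uncertain.

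**Figure D1:**
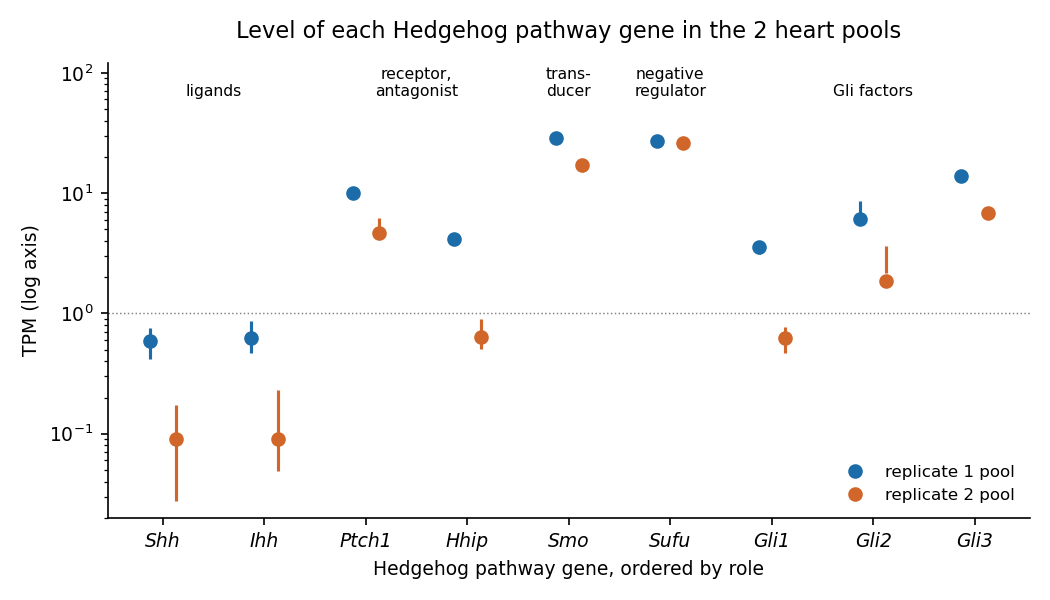
Level of each of the 9 genes in TPM (vertical log axis) in the pools of replicate 1 (blue) and replicate 2 (orange), ordered by role; bars are the intervals of TPM that the authors deposited and the dotted line is 1 TPM. Sufu is alike in both pools (27.0 and 25.9 TPM), while the other 8 are higher in replicate 1 with bars apart; the bars belong to the posterior mean, so the Gli2 point of replicate 2 (1.87 TPM) lies below its bar (2.17 to 3.63).

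Ordered by mean TPM the genes ran Sufu, Smo, Gli3, Ptch1, Gli2, Hhip, Gli1, Ihh and Shh. Of the 8 neighbouring steps only that from Smo to Gli3 separated both pools' values; at the other 7 steps the values overlapped. Within each pool the order of the values was nevertheless the same apart from Smo and Sufu, and Shh and Ihh. Smo and Sufu changed places, with intervals that overlapped in replicate 1, and Shh and Ihh were equal in replicate 2. Both pools reached 1 TPM or more for 5 of the 9 (Sufu, Smo, Gli3, Ptch1 and Gli2), and Hhip and Gli1 passed 1 TPM in replicate 1 alone. Of 13 pairs of pathway genes, 9 differed by more than the spread between the pools, meaning the same sign, no overlap between pools and the deposited intervals apart in each pool. Among these was Sufu over Kif7, the ciliary kinesin that also regulates Gli proteins, with 6.23 times its level in replicate 1 and 7.98 times in replicate 2.

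The difference between the pools was then measured on counts scaled by TMM, as a log2 ratio of replicate 2 over replicate 1 with a 95% interval for counting error only. A gene was called where its mean count was 10 or more, the ratio at least 2-fold and the deposited TPM intervals apart. By this rule 6 of the 9 genes were higher in replicate 1, where 6.02% of the 17547 genes compared were called that way. None of the 9 was higher in replicate 2, against 2.45% of all genes. In direction alone 8 of the 9 were higher in replicate 1, against 50.3% of all genes. The median log2 ratio of the 9 was -1.17, beside 0.00 over all genes, whose quartiles were -0.30 and 0.28 and whose 5th percentile was -1.46. Each ratio compares 1 pool with 1 pool. In RNA from whole tissue, fewer cells of a type and less RNA per cell cannot be told apart.

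Of the 9, 4 genes lay beyond the 5th percentile of all genes, namely Hhip, Shh, Ihh and Gli1. Hhip had a log2 ratio of -2.60 (-2.98 to -2.25), a 6.04-fold higher scaled count in replicate 1. Gli1 had -2.39 (-2.82 to -2.01), or 5.26-fold. Shh and Ihh had ratios almost as large, -2.55 (-4.21 to -1.46) and -2.53 (-4.15 to -1.39), but on so few counts that their intervals are wide. These ligand genes reached the mean count of 10 only through replicate 1, so their call rests on a filter they passed because they were high there. With a mean count of 50 or more required, 4 members were called, all higher in replicate 1, with no share of all genes computed at that limit.

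Ptch1, at -1.15 (-1.27 to -1.03), and Gli2, at -1.17 (-1.36 to -0.99), were just past the 2-fold threshold. Scaled by the spike-ins instead, which moves the median of all genes to 0.32, they came to -0.83 and -0.85 and were not called. Then 4 of the 9 remained called, with no share of all genes computed under that scaling. Just short of the threshold was Gli3 at -0.86 (-0.96 to -0.75), followed by Smo at -0.65 (-0.74 to -0.57). Sufu, at 0.03 (-0.04 to 0.10), was the exception among the 9. Its direction turned with the scaling: -0.06 by deposited TPM and 0.35 by spike-ins. The 3 target genes Ptch1, Gli1 and Hhip were thus all called, with a median log2 ratio of -2.39, and 2 of the 3 Gli genes.

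**Figure D2:**
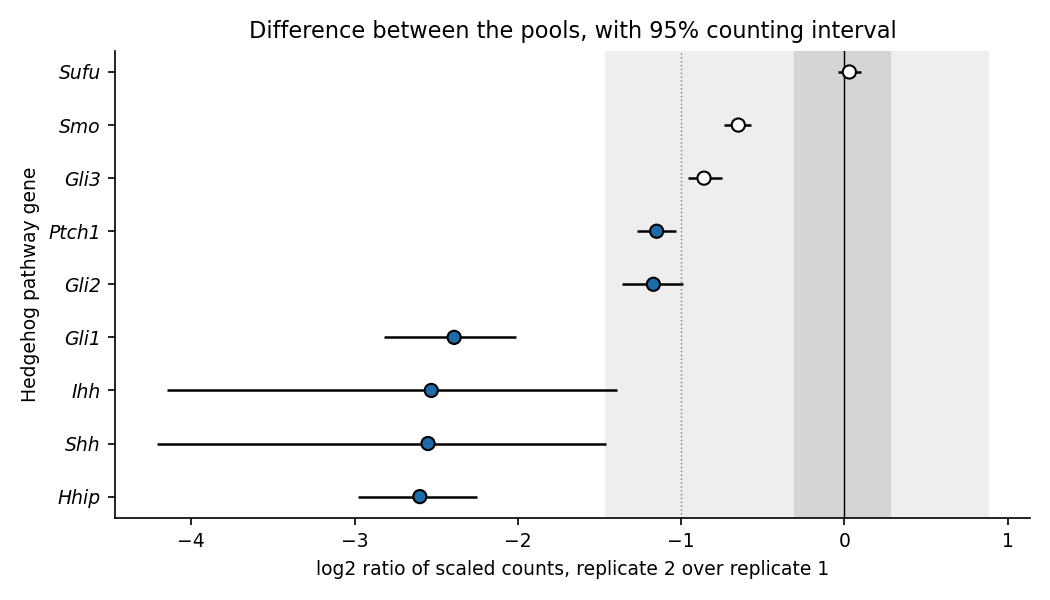
Log2 ratio of scaled counts, replicate 2 over replicate 1, for the 9 genes (points) with 95% intervals for counting error (lines); filled points were called, open points were not, the dotted line is 2-fold, and dark and light shading span the quartiles and the 5th to 95th percentiles of all 17547 genes. Hhip, Shh, Ihh and Gli1 lie between -2.60 and -2.39, left of the shading, and Sufu lies at 0.03.

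**Figure D3:**
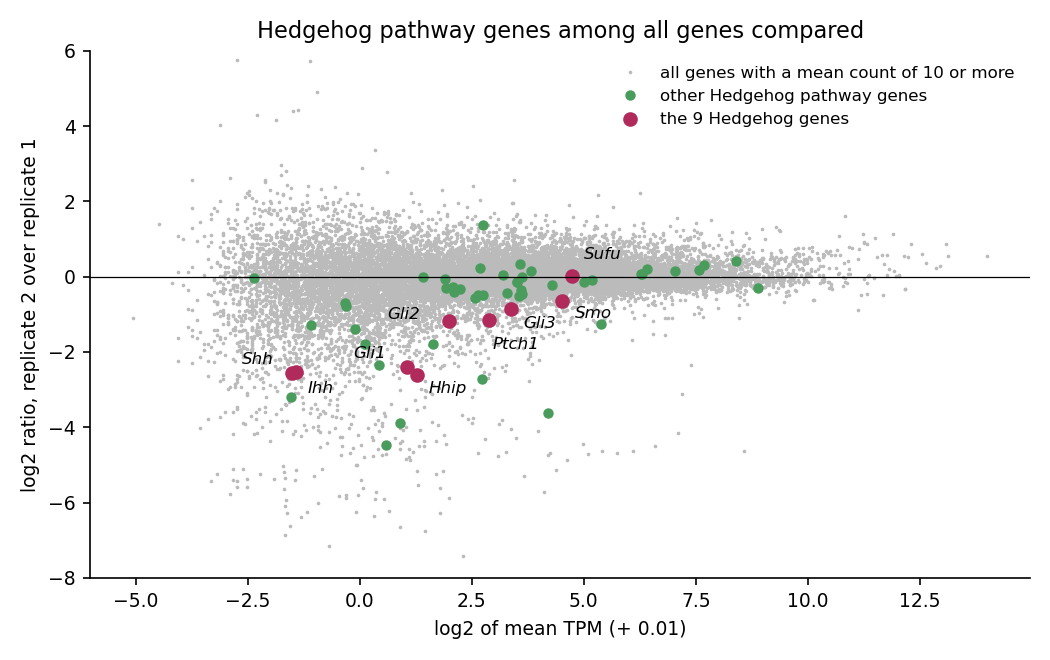
Log2 ratio between the pools (vertical axis, replicate 2 over replicate 1) against log2 mean TPM (horizontal axis) for all 17547 genes with a mean count of 10 or more (grey), 46 other Hedgehog pathway genes (green) and the 9 genes (red, named). Of the 9, 8 lie below the line at 0, and the 4 least abundant of them (Hhip, Gli1, Ihh and Shh) have ratios from -2.60 to -2.39.

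Transcript values showed where within a gene the counts lay. Ptch1-202, with its start at position 63564535 of chromosome 13, held 75.8% of the Ptch1 TPM in replicate 1 and 76.4% in replicate 2. Ptch1-201, which starts upstream at 63565735 held 12.1% and 4.79%, from 280 and 47 counts. Its log2 ratio between the pools, -2.32 (-2.80 to -1.87), was further from 0 than that of Ptch1-202, -1.0 (-1.13 to -0.87), and the counting intervals did not overlap. Such counts are estimates that divide reads among transcripts sharing most exons, an error these intervals leave out. A Ptch1 transcript of 305 nt, ENSMUST00000194022.1, held 1.89% and 10.3% of TPM on 1 and 3 counts, because TPM divides by length.

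Gli3-201, a coding transcript, held 52.8% and 58.4% of the Gli3 TPM, but 79.2% and 83.7% of the Gli3 counts. Gli3-203, annotated as a retained intron, held 23.8% and 13.7% of TPM, and 12.5% and 6.83% of counts (282 and 72). Its log2 ratio of -1.72 (-2.11 to -1.34) was further from 0 than the -0.78 (-0.90 to -0.66) of Gli3-201, again without overlap of the counting intervals. Gli2-201 held 71.5% of the Gli2 TPM in replicate 1 and 100% in replicate 2. The rest in replicate 1 was Gli2-202, a 367 nt transcript with 1.17 TPM from only 10 counts, and Gli2-206 with 0.570 TPM from 23 counts. Both were at 0 counts in replicate 2, which by counting error alone allows up to 3. The deposited intervals there reached 0.926 TPM for Gli2-202 and 0.298 TPM for Gli2-206. Those of replicate 1 began at 0.137 and 0.134 TPM, so the intervals of the pools overlapped for both. The log2 ratio of Gli2 was -1.71 by deposited TPM, which gives short transcripts more weight, and -1.17 by scaled counts. Transcript Gli2-201 alone gave -1.12 (-1.31 to -0.94). Hhip-201 held 91.9% and 90.4% and Sufu-201 88.4% and 86.6% of their genes' TPM, so these genes kept 1 main form in both pools. Ihh-201 held 94.1% and 100%, and Shh, Smo and Gli1 have a single transcript in the tables.

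**Figure D4:**
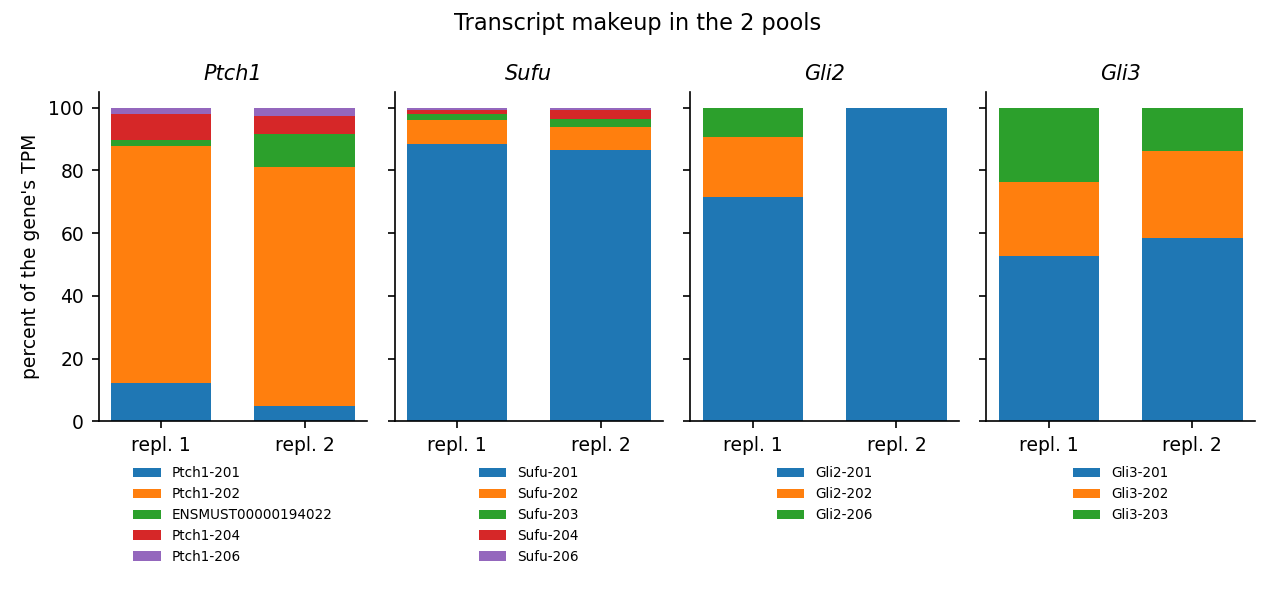
Percent of the gene's TPM (vertical axis, stacked to 100) held by each transcript with counts in at least 1 pool, for Ptch1, Sufu, Gli2 and Gli3 in each pool. The share of Ptch1-201 is 12.1% in replicate 1 and 4.79% in replicate 2, that of Gli3-203 is 23.8% and 13.7%, and Sufu is nearly the same in both.

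Beyond the 9, 48 other pathway genes were followed, of which 46 reached a mean count of 10. Of these 46, 11 were called higher in replicate 1 (6.02% of all genes) and 1 higher in replicate 2 (2.45% of all genes, a share close to 1 in 46). The higher value was in replicate 1 for 34 (50.3% of all genes), and the median log2 ratio was -0.30. Of the 11 called, 2 (Foxf2 and Nkx6-1) had fewer than 10 counts in replicate 2, so they reached the mean count of 10 only through replicate 1, as Shh and Ihh did. Counts by group are given as a description, and differences between groups were not tested. Of 11 genes of the cilium, where the signal is relayed, none was called (median -0.35), from Kif3a, a ciliary motor subunit (37.8 and 26.4 TPM), to Gpr161, a receptor that holds the pathway off (1.04 and 0.560 TPM). Of 8 genes for kinases and Gli degradation none was called either (median 0.15), from Prkar1a, a regulatory subunit of protein kinase A (303 and 375 TPM), to Stk36 (5.08 and 3.43 TPM). In lists this short a count of 0 is near the shares over all genes. In direction alone, 10 of the 11 cilium genes and 3 of the 8 for kinases and Gli degradation were higher in replicate 1 (50.3% of all genes).

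Among ligand handling genes, Scube2 and Scube3, which encode secreted helpers of ligand release, were called in opposite directions. Scube2 stood at 3.90 and 9.61 TPM with a log2 ratio of 1.38 (1.21 to 1.55), the only pathway gene called higher in replicate 2. Scube3 stood at 4.62 and 1.60 TPM with a ratio of -1.80 (-2.03 to -1.58). Scube1 was the most abundant of that group, at 11.3 and 8.11 TPM, and Disp2 the least, at 0.170 and 0.200 TPM. Of the receptors and co-receptors, Gas1, a membrane-anchored co-receptor, was called. It stood at 59.7 and 23.3 TPM with a ratio of -1.26 (-1.34 to -1.18), and was 11.8 and 6.84 times the level of the co-receptor Cdon. Cdon (5.07 and 3.40 TPM) and its relative Boc (7.26 and 4.60 TPM) were not called and did not differ from each other by more than the spread. Gpc3, a glypican that competes for ligand, was the most abundant of the group at 544 and 410.2 TPM, and Lrp2 the least at 1.05 and 0.510 TPM; neither was called. The ligand gene Dhh lay near 0 (-0.05).

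Of the genes known to respond to Hedgehog in mesenchyme, 7 of 12 were called higher in replicate 1 (6.02% of all genes). They were the forkhead genes Foxf1, Foxf2 and Foxl1, the homeobox gene Nkx3-2, the paired box genes Pax1 and Pax9, and Osr1, a zinc finger gene of second heart field and atrial septum. Foxf1 stood at 34.4 and 2.61 TPM, a ratio of -3.61 (-3.85 to -3.39). Osr1 stood at 11.6 and 1.62 TPM, a ratio of -2.73 (-3.08 to -2.41). Foxf2 had the lowest ratio, -4.47 (-5.90 to -3.49), on 197 and 7 counts, so it passed the filter through replicate 1 alone. Nkx3-2 (-2.35), Foxl1 (-1.80), Pax1 (-1.39) and Pax9 (-1.28) were closer to 0. The other 5, which include the cell cycle gene Ccnd2 (185 and 195 TPM), lay between -0.15 and 0.17 and were not called. Of the ventral neural tube responders, Foxa2, also a gene of endoderm, stood at 3.38 and 0.300 TPM (-3.90, -4.99 to -3.09), and Nkx6-1 had 38 and 3 counts (-3.21, -5.75 to -1.76). Nkx2-2 had 3 and 1 counts and Olig2 had 0 in both pools.

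Markers of endoderm, second heart field, fetal liver, and limb and trunk were mostly higher in replicate 1, while those of neural tube were split. Over all genes, 6.02% were called higher in replicate 1, the share that stands beside each count in this paragraph. Of foregut and pharyngeal endoderm markers, 9 of 9 were called higher in replicate 1, with a summed level of 70.6 and 15.4 TPM. Among them, 2 had fewer than 10 counts in replicate 2 and passed the filter only through replicate 1. The most abundant were the epithelial genes Cldn6 (26.8 and 5.42 TPM) and Epcam (22.8 and 4.96 TPM). Of second heart field markers 9 of 9 were called higher in replicate 1, 1 of them with fewer than 10 counts in replicate 2, and the sum was 129.5 and 29.5 TPM, led by Wnt2 (37.5 and 14.3 TPM), Foxf1 and Isl1 (22.7 and 5.94 TPM). Foxf1 and Osr1 stand in this list and in the list of responsive genes, and Pax9 and Foxa2 in that list and the endoderm list, so these counts are not separate. Fetal liver markers (8 of 8 called, sum 1289 and 52.6 TPM) and limb bud and posterior trunk markers (7 of 8 called, sum 14.1 and 0.95 TPM, with 3 at 0 in replicate 2) also had the higher sum in replicate 1. Of these calls, 2 in liver and 5 in limb and trunk were of genes with fewer than 10 counts in replicate 2, which passed the filter only because they were high in replicate 1. Neural tube markers were low in both pools, with a sum over 8 genes of 1.62 and 1.06 TPM and Olig2 at 0 counts. Of the 4 that reached a mean count of 10 (median -1.12), 2 were higher in replicate 1 and 2 in replicate 2. Nkx6-1 was called higher in replicate 1, and Pax6, with 31 and 5 counts (-2.27, -4.10 to -1.01), was not called. Sox3, with 12 and 23 counts (1.16, 0.12 to 2.33), and Neurog2, with 14 and 12 counts (0.04), had positive ratios and were not called.

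Markers of tissue within the heart differed less or the other way. Of 10 heart muscle markers (median 0.85) 3 were called higher in replicate 2 (2.45% of all genes). Of 6 markers of endocardium and endothelium (median 0.52) and of 5 of epicardium (median -0.08) none was called. Of 6 of cushion mesenchyme (median -0.46) 5 were higher in replicate 1 and 1 in replicate 2. Only Twist1 (14.6 and 6.39 TPM) was called, higher in replicate 1 (6.02% of all genes). The part of these other tissues in the ratios of the 9 genes was not tested.

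**Figure D5:**
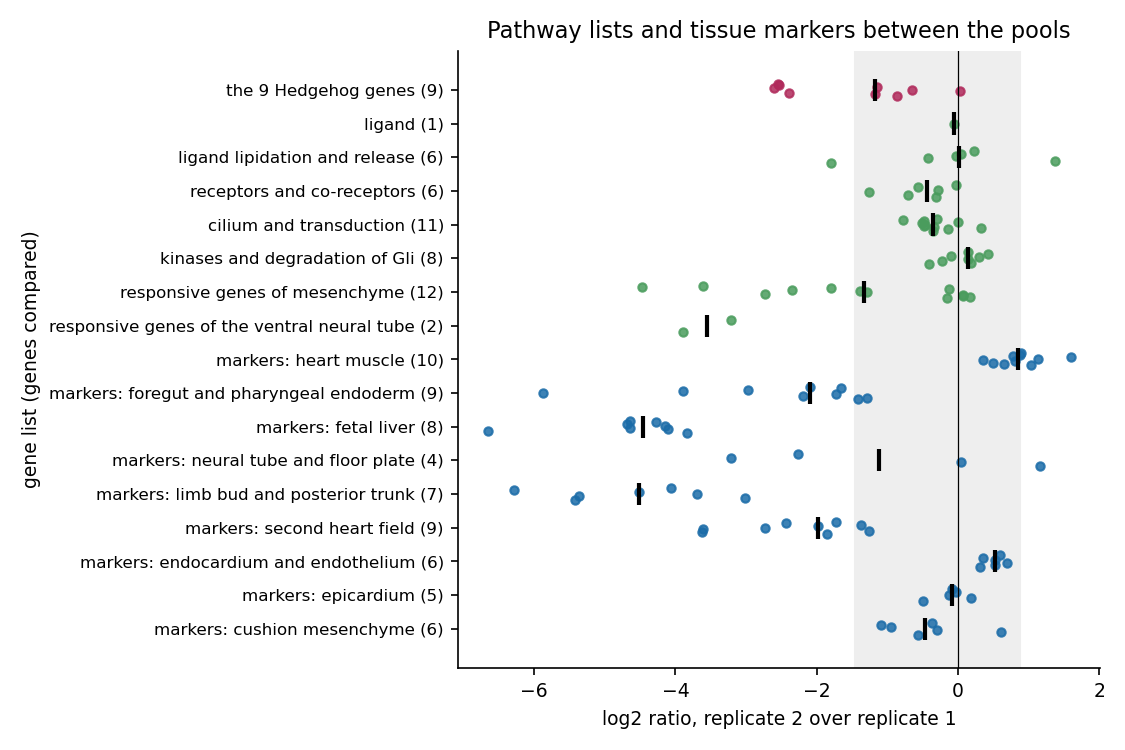
Log2 ratio between the pools (horizontal axis, replicate 2 over replicate 1) of each gene with a mean count of 10 or more, by list; black bars are medians, the number compared is in brackets and shading spans the 5th to 95th percentiles of all genes. The 9 Hedgehog genes (median -1.17) spread from -2.60 to 0.03, endoderm (median -2.10) and second heart field (median -1.98) markers lie left of 0, and heart muscle markers (median 0.85) lie right of it.

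The protein-coding genes whose levels were nearest to those of 3 members, by Euclidean distance of log2(TPM + 1) over the 2 pools, were as follows. Nearest to Shh were Pifo (0.570 and 0.0900 TPM), 9130230L23Rik (0.560 and 0.0900 TPM) and Marveld3 (0.560 and 0.0800 TPM). Nearest to Ptch1 were Serinc2 (10.0 and 4.54 TPM), Cebpd (9.82 and 4.52 TPM) and Mbd2 (9.67 and 4.78 TPM). Nearest to Gli1 were Gdf2 (3.62 and 0.580 TPM), Stab2 (3.35 and 0.600 TPM) and Tbx4 (3.41 and 0.680 TPM). With 2 pools, likeness means only that both values were close.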

How the data were processed

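RNA of 2 heart pools was used. The deposited tables, 1 per library for genes and 1 for transcripts, hold expected counts (estimated reads per feature, not normalised) and TPM (per length, over all features), with posterior means of both. The authors' interval bounds of TPM were used as a score, and the percent that each transcript holds of its gene's TPM is also deposited. Assembly mm10 is named per the labels, and annotation M4 in the description deposited with the tables; quantifying program and strand setting: not given in the sources used here. Names and positions came from GENCODE M21 (GRCm38): 42462 of 43346 genes matched, and 4.22% and 3.13% of counts lay off mouse genes and were left out.

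TMM factors were computed on rounded expected counts in edgeR 4.0.16 (R 4.3.3, limma 3.58.1). Log2 ratios used the unrounded counts with a prior count of 0.5, and exact binomial 95% intervals used the rounded ones. The intervals cover counting error only, as does the limit of 3 counts behind a 0. No molecular identifiers are named, so reads are not independent molecules. Python 3.11.15 (pandas 2.3.3, scipy 1.17.1) did the rest, and DESeq2 1.42.0 gave alternative size factors. Alternatives were scaling, estimate, filter, fold, pseudocount and each pool alone.

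The members and lists were chosen with earlier results of these data known. The text could name the 9 members, pathway genes that were called, paired or highest or lowest in their group, the 4 most abundant genes of each marker list (Twist1, Olig2 and Nkx2-2 were named after their values were seen) and the 3 genes nearest to Shh, Ptch1 and Gli1. A result on another pathway gene is not reported here.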

Additional observations from a re-analysis of the deposited data

How the results depend on the processing

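Of the 9 genes, 6 were called higher in replicate 1 with TMM scaling, 6 with DESeq2 size factors or posterior mean counts, and 7 by deposited TPM. There were 4 with spike-in scaling, 4 at a mean count of 50 or more, 6 with no filter or by 2-fold alone, and 8 at 1.5-fold. None was called higher in replicate 2 under these. The share of all genes called higher in replicate 1 was computed for the main rule alone (6.02%). Whether the counts under the other settings stand out from all genes was therefore not assessed. Only Sufu changed direction, between -0.06 (deposited TPM) and 0.35 (spike-ins). Taken on expected counts in place of TPM, the mean share of Gli3-201 in its gene rose from 55.6% to 81.5%. With 5 TPM in place of 1 TPM as the limit of detection, 3 genes were detected in both pools in place of 5, by construction; at 0.5 TPM there were 7. Of 13 pairs, 9 exceeded the spread, and 8 did with posterior mean TPM. With 1 pool left out there is no spread, so only intervals apart within the other pool were required. By that looser rule 11 pairs passed without replicate 1 and 10 without replicate 2, which cannot be set against the 9. No paired analysis was possible because there is 1 group. With 1 pool on each side of every ratio, the spread between pools of the same make-up is not known, and Shh and Ihh rest on 6 counts each in replicate 2.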
